A study of Mus musculus with 18 samples.

Results

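Of 14406 clusters of miR-181-5p chimeric reads in mouse thymocytes, 619 (4.30%) had their most frequent position outside every gene span of the RefSeq table for assembly GRCm38.p6. These 619 intergenic clusters are described here. To find them, miR-181a, b, c and d-5p reads of the 3 wild-type libraries enriched for miR-181 were pooled, and positions on the same strand at most 20 nt apart were joined. Clusters of 5 or more reads were kept, and those of the deleted locus on chromosome 1 were left out. A further 13737 clusters lay inside gene spans, 47 lay in the deleted locus, and 3 lay on a scaffold for which the table holds no gene span and were set aside. Without enriched wild-type library 1, the deepest, 363 clusters would have been kept. Because wild-type enriched reads chose the clusters, values in those libraries are descriptions without a test.

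The study used miR-eCLIP, in which ultraviolet light crosslinks RNA to Argonaute 2 (Ago2), Ago2 is immunoprecipitated (IP), and the bound miRNA is ligated to the RNA fragment beside it. The resulting chimeric read names the miRNA and places the fragment in the genome. Total thymocytes came from 6-week-old mice and were crosslinked at 254 nm. Of 18 samples in 6 groups of 3, 12 were used, and 6 input samples were not analysed here. Wild-type mice were C57BL/6, and knockout mice carried B6.Mirc14tm1.1Ankr, which removes miR-181a-1 and miR-181b-1. For each genotype there were Ago2 IP libraries made without enrichment, called unenriched below, and libraries in which miR-181 reads were enriched after the Ago2 IP. The knockout keeps the other miR-181 genes, which encode miR-181a, b, c and d. Nothing in the labels says whether the 3 samples of a group came from separate animals, so p-values measure the spread between these samples, which may be technical.

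A miRNA guides Ago2 to a target RNA chiefly through its seed, the bases near its 5′ end that pair with the target. Most known target sites lie in the 3′ untranslated ends of messenger RNAs, and miR-181 is known in thymocytes for tuning the strength of T cell receptor signals. A gene span runs from the start to the end of a gene as RefSeq annotates it, and no annotation holds every transcript.

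The 4 family members are shown because every cluster is defined by their names. Sequences are from RefSeq (GRCm38.p6), with the seed, bases 2 to 8, in capitals.
miR-181a-5p: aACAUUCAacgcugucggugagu
miR-181b-5p: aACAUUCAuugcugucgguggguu
miR-181c-5p: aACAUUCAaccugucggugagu
miR-181d-5p: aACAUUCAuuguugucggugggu
All 4 share 1 seed, whose perfect match in a target is TGAATGT, with the shorter core GAATGT.

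No genome sequence was used here, so the bases under a cluster could be read only where a RefSeq promoter sequence, 250 bases before to 50 after a gene start, covers the peak. This held for 8 of the 619 clusters. The 4 printed are those on the gene's own strand with the core match, the most abundant of the 8, and the one beside a T cell receptor component. Each is given 5′ to 3′ on the strand of the reads, up to 50 bases to either side of the peak, with a core match in capitals.
Dusp6, chr10:99263128-99263228, plus strand: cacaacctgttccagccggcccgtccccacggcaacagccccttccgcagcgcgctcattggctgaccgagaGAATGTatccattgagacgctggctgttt
LOC115488002, chr12:18648740-18648819, plus strand: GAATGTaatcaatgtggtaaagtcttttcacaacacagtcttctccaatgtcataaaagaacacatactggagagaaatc
Smndc1, chr19:53390806-53390884, minus strand: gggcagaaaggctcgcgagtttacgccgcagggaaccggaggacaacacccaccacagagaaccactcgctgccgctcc
Cd3g, chr9:44980606-44980681, plus strand: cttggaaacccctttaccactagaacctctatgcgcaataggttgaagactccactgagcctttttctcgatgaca
The core match lay 22 nt after the peak at Dusp6, which encodes a phosphatase of the MAP kinase ERK, and 29 nt before it at LOC115488002. None of the 8 windows held the longer match. Among 32851 promoter windows of full length, with 50 bases to either side of the centre, GAATGT occurred in 1.98% on the gene's strand and in 2.09% on the other, and TGAATGT, which contains it, in 0.566% and 0.536%. A match of 6 letters is a description and shows no site.

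Unenriched wild-type libraries held 43983 to 117849 chimeric reads, those of the unenriched knockout 52100 to 67639, those of enriched wild type 194628 to 293149, and those of enriched knockout 6832 to 19264. The share of reads named miR-181-5p was 30.1% to 32.3%, 1.32% to 1.44%, 98.8% to 99.2% and 70.5% to 72.6% in the same order. All 14 thymocyte markers had reads, 13160 to 17125 reads in sum per 1000000 chimeric reads of the library (rpm). B cell and myeloid lists reached 51.9 rpm at most, erythroid genes 0 to 164 rpm, and of thymic epithelial markers Krt5, Krt8, Foxn1 and Psmb11 were at 0. Enriched knockout libraries 2 and 3 differed no more than by counting noise in a chi-square test over clusters (p = 0.316, against 0.00102 and 0.0188 for the other pairs), so group values are also given with them as 1 sample.

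The 619 clusters held 15084 miR-181 reads, 2.06% of those in the enriched wild-type libraries. The most abundant cluster took 19.7% of them, the first 10 took 38.3%, and the first 50 took 60.2%. The median cluster had 8 reads. At the threshold, 126 clusters had exactly 5 reads, and 199 more outside gene spans fell just short with 4.

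Intergenic clusters were narrower than those inside genes. Their median width was 11 nt, against 35 nt for the 13737 clusters inside spans. A single position held all reads of 192 clusters (31.0%, 95% Wilson interval 27.5% to 34.8%), against 1.96% inside genes, and 274 (44.3%, 40.4% to 48.2%) were at most 5 nt wide, against 5.27%. Repeats, reads of the same position and miRNA within a library, made up a median of 25% of reads per cluster outside and 7.69% inside genes. Whether repeats are separate molecules was not tested, and intervals cover counting error only. The 5-nt limit, set with these data in view, is used below to separate 274 narrow from 345 wide clusters.

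**Figure D1:**
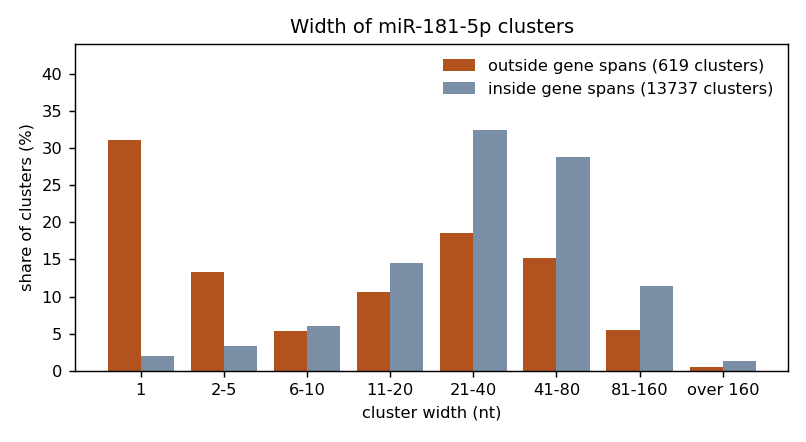
Share of clusters (%, vertical axis) in each class of width (nt, horizontal axis), for 619 clusters outside and 13737 inside gene spans. Outside genes 31.0% of clusters occupied 1 position, against 1.96% inside, and the most frequent class inside genes was 21 to 40 nt.

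The clusters lay close to genes. The median distance from the peak to the nearest gene end was 5196 nt, with a range of 3 to 363137 nt. Of the 619, 139 (22.5%) lay within 1000 nt, where 4.42% of all bases outside gene spans lie, and 164 (26.5%) lay beyond that but within 5000 nt, where 13.7% of such bases lie. At the far end, 74 were over 50000 nt away, in 33.1% of such bases. Width followed distance, with a median of 25 nt within 1000 nt of a gene and 1 nt beyond 50000 nt. The nearest gene was protein-coding for 320 clusters, a long noncoding RNA for 153 and a pseudogene for 104.

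Of the 438 clusters whose nearest gene has a known strand, 206 (47.0%, Wilson interval 42.4% to 51.7%) lay on the gene's strand past its annotated end. Another 91 (20.8%) were on the same strand before the start, 82 (18.7%) on the opposite strand before the start, and 59 (13.5%) on the opposite strand past the end. The strand came from the promoter table for 378 clusters and from the chimeric reads of the gene for 60, and where both sources gave a strand they matched in 92.9% of 6566 genes. With the promoter table alone the share past the end on the gene's strand was 47.9% of 378.

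That preference was found in wide clusters. Of 291 wide clusters with a known gene strand, 170 (58.4%, 52.7% to 63.9%) lay past the end of the gene on its strand, at a median of 1893 nt. Of 147 narrow ones, 36 (24.5%, 18.2% to 32.0%) did, at a median of 10246.5 nt, and the other 3 placements took 23.1% to 28.6%. Within 1000 nt of a gene the counts were 62 of 88 wide and 6 of 23 narrow clusters.

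**Figure D2:**
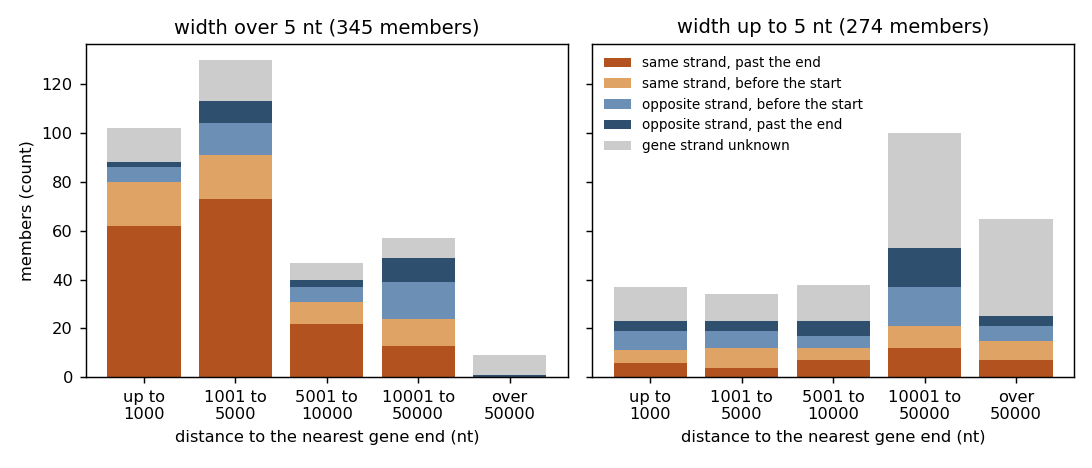
Number of clusters (vertical axis) by distance from the peak to the nearest gene end (nt, horizontal axis), for 345 clusters wider than 5 nt (left) and 274 of at most 5 nt (right), coloured by strand and side of the nearest gene. Of the wide clusters within 1000 nt, 62 lay on the gene's strand past its end, whereas 100 narrow clusters lay between 10000 and 50000 nt away with no side in the majority.

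The Ago2 IP libraries, which played no part in choosing the clusters, give a view of them without enrichment. In wild type 148 of 345 wide clusters (42.9%, Wilson interval 37.8% to 48.2%) had a miR-181 read, against 55 of 274 narrow ones (20.1%, 15.8% to 25.2%). The same widths inside genes gave 51.5% and 20.4%. Their median enriched reads were close, at 9 in wide and 8 in narrow clusters. Per 1000 enriched miR-181 reads, wide clusters had 42.4 reads in the unenriched wild-type libraries, or 54.0 without the most abundant cluster, and narrow ones 18.9. With repeats of the enriched reads counted once this order turned, with 84.0 per 1000 distinct reads in wide and 98.9 in narrow clusters. A cluster of few positions can hold few distinct reads, so both ratios are given.

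The nearest gene of a wide cluster often carried miR-181 reads itself. Of the 170 wide clusters past the end on the gene's strand, 141 (82.9%) had a gene with miR-181 reads inside its span in the unenriched wild-type libraries, at a median of 7 reads. For the 36 narrow clusters in that placement it was 7 (19.4%), at a median of 0. The placement alone did not set wide clusters apart, since 34 of 40 (85.0%) on the opposite strand before the start also had such a gene. The gene strand came from the promoter table for 147 of the 170 wide and 34 of the 36 narrow clusters. For the rest it came from the gene's chimeric reads, a choice that favours genes with reads. Reads on either strand of the span were counted, and gene length was not taken into account.

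Wide clusters past the end included several next to known genes. Those with 50 or more reads are named after their values were seen, beside those of the naming rule. Mcl1, which encodes an antiapoptotic protein that thymocytes need, had a cluster 970 nt past its end (chr3:95664119-95664156, plus strand). It held 62, 46 and 22 miR-181 reads in the enriched wild-type libraries and 3, 1 and 1 in the unenriched wild-type libraries. The knockout had 0 in each Ago2 IP library and 1, 3 and 0 after enrichment.

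Mxd4, a transcriptional repressor of the Myc network, had a cluster 100 nt wide at 452 nt past its end (chr5:34176090-34176189, minus strand). Its miR-181 reads were 5, 5 and 4 in the unenriched wild-type libraries, 0, 0 and 0 in the unenriched knockout, and 44, 44 and 36 in the enriched wild-type libraries. The Mxd4 span itself had 2 miR-181 reads in the unenriched wild-type libraries together, against 14 at the cluster. Zfp652, a zinc-finger gene, had 4, 3 and 5 reads in the unenriched wild-type libraries at 1259 nt past its end (chr11:95765911-95766021, plus strand), 0 in the unenriched knockout, and 4 in its whole span. At these 2 clusters more unenriched wild-type reads of miR-181 lay than in the annotated span of the nearest gene. Whether the clusters belong to transcripts of these genes was not tested.

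Ago2, which encodes the immunoprecipitated protein, had a cluster 456 nt past its end (chr15:73101161-73101276, minus strand). Its miR-181 reads were 3, 0 and 3 in the wild-type and 0 in every unenriched knockout library, and its span had 70 in wild type. Soat1, which esterifies cholesterol, had 57 enriched reads at 23 nt past its end and 7 wild-type and 1 unenriched knockout reads. Sesn3, a stress-response gene, had the third widest cluster, 185 nt wide and 5964 nt past its end (chr9:14331960-14332144, plus strand), with 0, 4 and 0 reads in the wild-type and 1, 0 and 0 in the unenriched knockout. Tra2a, a splicing factor, had 97 enriched reads at 7469 nt, and 5 miR-181 reads among 16 of any miRNA in the unenriched wild-type libraries. Gm32985, a long noncoding RNA, had 80 enriched reads at 26812 nt, of which 72.5% were repeats, and no read of any miRNA in the Ago2 IP.

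In all, the 170 wide clusters past the end held 2713 enriched wild-type reads. In the unenriched wild-type libraries, 70 of them had 171 miR-181 reads together, and in the unenriched knockout 8 of them had 8. Most were small, with 25 of 170 reaching 20 enriched reads, and 143 lay past a protein-coding gene.

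Neighbouring clusters joined into longer stretches. With a gap of at most 5000 nt on 1 strand, the 619 clusters formed 541 loci, of which 44 held 122 clusters. The largest, with 12 clusters over 3329 nt, lay before Rn18s-rs5, a copy of ribosomal RNA (chr17:39842992-39846320, plus strand). Next were 7 clusters past the end of C1galt1, which starts the core O-glycan (chr6:7872448-7875580, plus strand; 78 reads), and 6 by Lnpep, an aminopeptidase (chr17:17522076-17527200, minus strand; 66 reads). Next to the Ikzf3 cluster described below lay one nearest to Mien1, and the pair, on the Ikzf3 strand past its end (chr11:98460887-98463034, minus strand), had 101 enriched miR-181 reads, and 13 unenriched wild-type and 0 unenriched knockout reads of any miRNA. The C1galt1 stretch had 13 reads of any miRNA in the wild-type and 3 in the unenriched knockout.

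Among 59 T cell genes listed with earlier results known, 8 were the nearest gene of 19 clusters. These clusters held 472 enriched wild-type miR-181 reads, 37 in the unenriched wild-type libraries, 0 in the unenriched knockout and 10 after enrichment in the knockout. A miR-181 read occurred in 10 of the 19 in the unenriched wild-type libraries. On the strand opposite to the gene lay 15 of them, 2 lay on its strand past the end, and 2 on its strand before the start.

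Satb1, a chromatin organiser of T cell development, was the nearest gene of 9 of these, all on the opposite strand and 2401 to 21244 nt before its start. They held 209 enriched wild-type reads, 18 in the unenriched wild-type libraries, 0 in the unenriched knockout and 5 after enrichment in the knockout. The most abundant (chr17:51835599-51835704, plus strand) had 32, 41 and 32 enriched wild-type miR-181 reads. In the Ago2 IP it had 6, 4 and 1 in wild type, above the 0 in every unenriched knockout library.

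Cd8a, the coreceptor chain that marks cytotoxic and double-positive thymocytes, was the nearest gene of 4 clusters with 166 enriched reads, 12 wild-type and 0 unenriched knockout reads. One on the gene's strand lay 2807 nt before its start (chr6:71370568-71370642, plus strand; 27, 19 and 15 enriched reads) and another at 5355 nt had 1, 3 and 2 reads in the unenriched wild-type libraries. Another, 17804 nt from Cd8b1, the partner chain, had 5 enriched reads and none in the Ago2 IP.

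The remaining T cell neighbours were small. Ikzf3, a lymphoid transcription factor, had 20, 11 and 9 enriched reads at 1645 nt past its end (chr11:98462937-98463034, minus strand) and 1 in the unenriched wild-type libraries. Ltb, which encodes lymphotoxin beta, and Cd3g, a chain of the T cell receptor complex, each had an opposite-strand cluster, 829 and 225 nt before the start, with 18 and 17 enriched reads and 2, 1 and 0 in the unenriched wild-type libraries. The cluster by Tox, a nuclear factor of T cell development, had 11 enriched reads at 46684 nt, and that by Btg1, an antiproliferative gene, 6 at 5796 nt. Neither had an Ago2 IP read.

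The 10 most abundant clusters that had 3 or more reads in each enriched wild-type library were a different set. Of these, 8 were at most 9 nt wide and 4 lay at a single position. The exceptions were the clusters on chromosome 3 and beside LOC115490388. Repeats made up 85.3% and 54.5% of the enriched wild-type miR-181 reads at these exceptions, and 90.2% to 99.5% at the 8 others. The most abundant of all (chr3:5860329-5860640, plus strand) was also the widest, at 312 nt, and lay 109184 nt from the nearest gene, the pseudogene Gm8797. It had 1030, 1142 and 801 miR-181 reads in the enriched wild-type libraries and 37, 48 and 24 in the enriched knockout. In the Ago2 IP it had 24, 14 and 10 in wild type and 1, 0 and 0 in the knockout. This is not particular to it, since 98% of the 49 clusters fitted with miR-181 reads alone were lower in the knockout.

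The second (chr18:65832352-65832359, minus strand, 10013 nt from the pseudogene Gm52375) had 313, 211 and 169 enriched wild-type reads but 0, 1 and 2 in the unenriched wild-type libraries. The third was 1 position (chr12:79965790-79965790, plus strand, 13635 nt from the pseudogene Gm8275) with 272, 180 and 101 enriched reads. In the unenriched wild-type libraries it had 2, 1 and 1 miR-181 reads, beside 26 of miR-142a-3p, and repeats made up 99.5% of its enriched reads. The fourth (chr15:22453232-22453233, plus strand, 95666 nt before Cdh18, which encodes a cadherin) had 169, 103 and 80 enriched reads and 1, 2 and 0 in the unenriched wild-type libraries.

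Of the others, the clusters on chromosome 1 (89941849 to 89941850, minus strand; 252 reads), chromosome 16 (50485607, minus strand; 224 reads) and chromosome 18 (84202068, plus strand; 169 reads, 5633 nt from Zfp407) each had 1 miR-181 read in the 3 unenriched wild-type libraries together. Before Sp1, a general transcription factor, a cluster at 15021 nt (chr15:102391289-102391297, plus strand) had 61, 63 and 40 enriched reads and 2, 3 and 1 in the unenriched wild-type libraries. Before Smndc1, a splicing factor, the position 155 nt from the start (53390856 on chromosome 19, in the promoter printed above) had 84, 39 and 31 enriched reads and 3, 1 and 1 in the unenriched wild-type libraries. Both had 0 miR-181 reads in the unenriched knockout. Reads of any miRNA were more frequent at some of these narrow clusters without enrichment, with 31 wild-type and 27 knockout reads at Gm8275, and 22 and 23 at Cdh18. Smndc1 had 13 and 9, of which 7 and 9 were of miR-142a-3p.

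A cluster of the opposite kind, named after its values were seen, lay 6536 nt before the long noncoding RNA Gm34596 on its strand (chr1:38659840-38659974, minus strand). It was 135 nt wide and had 10, 5 and 7 reads in the unenriched wild-type libraries, all of miR-181, and 0 in each unenriched knockout library. It had 44, 44 and 47 enriched wild-type reads, and 0, 2 and 4 in the enriched knockout.

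The 3 widest clusters were those on chromosome 3, at LOC115488002 and past Sesn3. That at LOC115488002 spanned 198 nt (chr12:18648673-18648870, plus strand) around the promoter window printed above, with 22, 21 and 19 enriched reads, 2, 1 and 0 in the unenriched wild-type libraries and 0 in the other 6 libraries. The clusters nearest to a gene had little. Those 3 nt from the transfer RNA genes n-TLcag3, n-TQctg7 and TrnE (mitochondrial), 4 nt past the end of Dgke, a diacylglycerol kinase, and 6 nt from the pseudogene Gm11956 had 5 to 11 enriched reads. The distance of 6 nt was shared with the clusters by n-TVcac8 and Tmem126b.

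Across the groups, miR-181 reads at the 619 clusters were lower in the unenriched knockout. They made 2130, 1911 and 2978 rpm in the unenriched wild-type libraries (2340 ± 564, SD, n = 3) and 82.3, 73.9 and 96.0 in the knockout (84.0 ± 11.1). These are 514 and 15 reads, and the groups did not overlap. The same held inside genes, with 113297 ± 2339 rpm in wild type and 5579 ± 320 in the knockout (SD, n = 3). Per 1000 miR-181 reads of each library, the 619 clusters had 7.07, 6.18 and 9.22 in wild type and 6.23, 5.32 and 6.67 in the knockout. On this scale the groups overlap. Clusters with a miR-181 read numbered 203 (32.8%) in wild type and 14 (2.26%) in the knockout, against 49.9% and 4.99% of the 13737 inside genes. Of 56 picked for 3 or more wild-type reads, 6 had any in the knockout, a choice that by itself favours the wild type. Depth differed, so counts of clusters with a read cannot be compared directly.

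After enrichment the wild-type sum was 20229 ± 1008 rpm and the knockout sum 12225 ± 954 rpm, or 12061 ± 694 (SD, n = 2) with libraries 2 and 3 as 1 sample. The wild-type value is what chose the clusters. In the knockout, 166 of the 619 had a miR-181 read after enrichment, 459 reads in all.

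**Figure D3:**
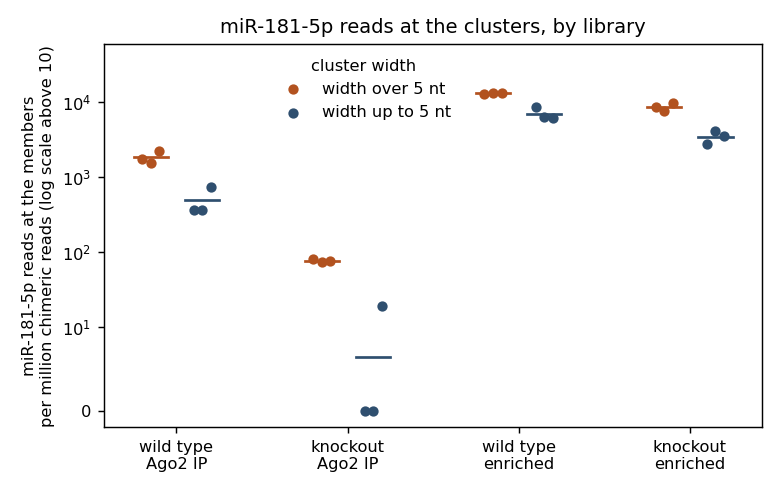
miR-181-5p reads at the clusters per 1000000 chimeric reads of the library (vertical axis, log scale above 10), for the 3 libraries of each group (points) and their mean (line), in clusters over 5 nt wide and up to 5 nt wide. Wide clusters had 1549 to 2228 rpm in the unenriched wild-type libraries and 73.9 to 82.3 in the knockout, and narrow clusters 362 to 750.3 and 0 to 19.2.

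The family member named in the pooled reads differed between genotypes, for which no test was made. miR-181a-5p made up 83.5% of miR-181 reads at these clusters in the unenriched wild-type libraries and 86.0% after enrichment, and miR-181b-5p 14.4% and 13.0%. In the enriched knockout, which lacks 1 locus of a and b, the shares were 50.5% a, 16.8% b, 23.1% c and 9.59% d. Inside genes the enriched knockout gave 52.3%, 17.5%, 20.5% and 9.68%. Narrow and wide clusters had 52.9% and 49.5% of miR-181a-5p there. In the unenriched knockout all 4 names occurred among the 15 reads.

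Genome-wide, the share of miR-181-5p reads outside gene spans, without the deleted locus, did not separate the genotypes in the Ago2 IP. It was 3.86% ± 0.139 in wild type and 4.01% ± 0.222 in the knockout (SD, n = 3), a difference of 0.153 percentage points (exact two-sided permutation p = 0.5, adjusted p = 0.5 over 2 tests). In the enriched knockout it was 5.04% ± 0.316, which is 1.03 points above the unenriched knockout without overlap of the libraries (exact permutation p = 0.1, the smallest that 3 against 3 allow, adjusted p = 0.2). The enriched wild-type share was 5.39% ± 0.161. Other miRNAs had shares of 4.32%, 4.40%, 5.96% and 5.14% in the unenriched wild-type libraries, the unenriched knockout, enriched wild type and enriched knockout.

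Reads of other miRNAs also lay in these clusters. In the unenriched wild-type libraries 56.1% of 916 reads were miR-181, and in the unenriched knockout 2.96% of 507. Among 86 clusters with 3 or more unenriched wild-type reads, 56 had more miR-181 than other reads, and 12 had no miR-181 read. The leading other miRNAs were miR-142a-3p, abundant in blood cells, with 163 wild-type and 213 unenriched knockout reads, and miR-29a-3p and miR-7a-5p. Of all chimeric reads in unenriched wild type, miR-29a-3p made up 0.352% and miR-7a-5p 0.0801%, against 5.02% and 2.402% of those at these clusters, whereas miR-142a-3p made up 27.8% and 17.8%. A single cluster carried each of the first 2 shares. All 46 wild-type miR-29a-3p reads and 78 of 79 in the knockout lay at the Rn18s-rs5 cluster described next, and all 22 wild-type miR-7a-5p reads and 36 of 37 in the knockout lay at the Oip5os1 cluster, so neither share describes the other clusters. Their mature sequences, with the seed in capitals, show that none shares the miR-181 seed.
miR-142a-3p: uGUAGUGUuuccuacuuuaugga
miR-29a-3p: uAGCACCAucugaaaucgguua
miR-29b-3p: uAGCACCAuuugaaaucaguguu
miR-7a-5p: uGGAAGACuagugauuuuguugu
The miR-29a-3p and miR-29b-3p seeds are the same.

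At single clusters 1 other miRNA often led. The first cluster of the Rn18s-rs5 stretch (chr17:39842992-39843002, plus strand) had 46 wild-type and 78 unenriched knockout reads of miR-29a-3p, 9 and 12 of miR-29b-3p, and none of miR-181. Beyond the end of Oip5os1, a long noncoding RNA known as Cyrano and for a site that pairs extensively with miR-7, a cluster at 1374 nt (chr2:119602105-119602131, plus strand) had 22 wild-type and 36 knockout reads of miR-7a-5p. The cluster 27 nt before the start of Chic1 (chrX:103356376-103356379, minus strand) had reads of miR-467e-5p (10 wild-type, 7 knockout) and of 3 miR-669 names. Beside the chromosome 3 cluster, another (chr3:5860675-5860720) had 10 wild-type and 21 knockout reads of miR-142a-3p and no miR-181 read in the Ago2 IP.

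**Figure D4:**
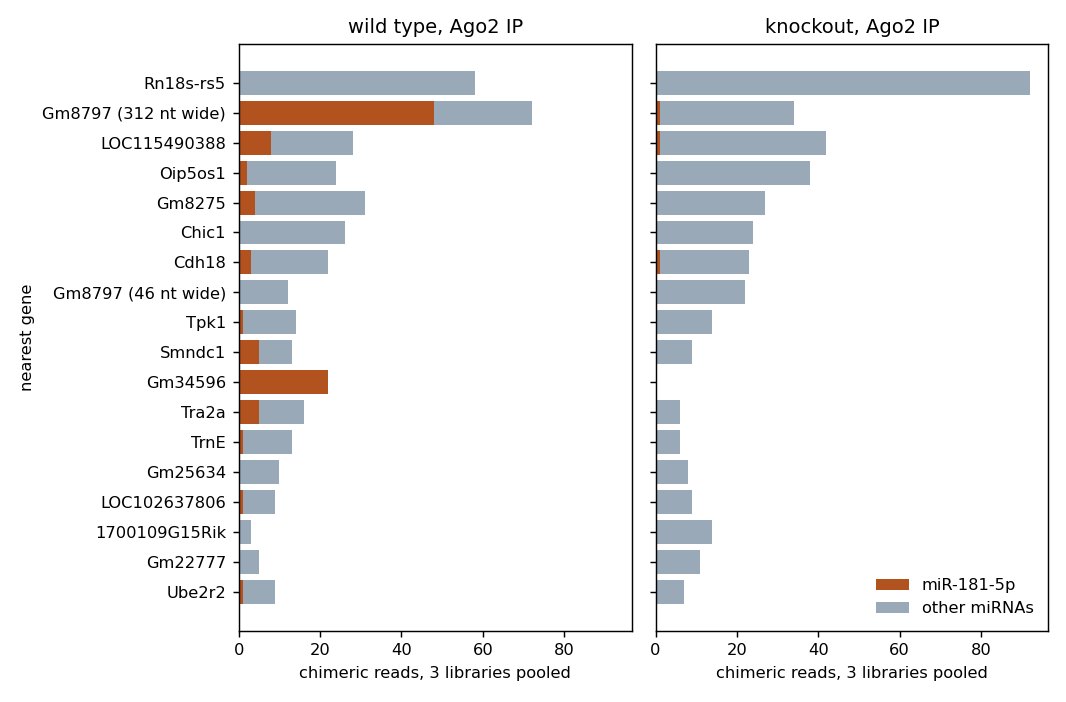
Chimeric reads in the 3 wild-type (left) and 3 knockout (right) Ago2 IP libraries, pooled (horizontal axis), at the 18 clusters with 15 or more such reads (vertical axis, by nearest gene), split into miR-181-5p and other miRNAs. Gm34596 had 22 wild-type reads, all miR-181, and none in the knockout, whereas Rn18s-rs5 had 58 and 92 reads, none of them miR-181. Pooled reads are not scaled to depth.

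Few clusters were deep enough for a test. Reads of all miRNAs were compared by edgeR's quasi-likelihood test over the clusters inside and outside gene spans together, with a minimum count of 10. Between unenriched knockout and unenriched wild-type libraries, 120 clusters passed this filter, 4 of them intergenic. Of these 4, 2 were called at an adjusted p of at most 0.05, both higher in the knockout, where 80% of all 120 were called (35% higher, 45% lower). A cluster could pass through the group where it is high, so this count does not describe the 619. Scaling set the split of these calls. TMM factors gave 42 higher and 54 lower, and library sizes alone 18 and 57, and this moved the median log2 change of all clusters from -0.25 to -0.68.

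Both called clusters carried other miRNAs. The cluster before Rn18s-rs5 had 27, 20 and 11 reads in the wild-type and 29, 32 and 31 in the unenriched knockout, 256 ± 30.7 and 515 ± 69.3 rpm. It was higher in the knockout (log2 change 1.44, SE 0.27, edgeR adjusted p = 5.80e-05). With library sizes alone the change was 1.01 (adjusted p = 0.00264), and scaled among reads of other miRNAs alone it was 0.49 and not called (adjusted p = 0.298). With no filter beyond 1 read it was not called either (1.12, adjusted p = 0.124).

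The other call was the cluster 2941 nt past the long noncoding RNA LOC115490388 (chr6:3201423-3201515, plus strand). It had 17, 9 and 2 reads in wild type and 12, 18 and 12 in the knockout, 107 ± 53.5 and 231 ± 34.4 rpm. The log2 change was 1.37 (SE 0.36), and reads of miR-142a-3p were 16 and 35. This cluster passed the filter through the knockout alone, where it is high. Its call is therefore a description, and no p-value is given for it. Its miR-181 reads, 5, 3 and 0 in wild type and 0, 1 and 0 in the knockout, were not higher in the knockout and were too few to be tested. After enrichment it had 87, 95 and 60 miR-181 reads in wild type and 3, 6 and 1 in the knockout. It was not called with DESeq2 (1.13, adjusted p = 0.0919), with no filter beyond 1 read (1.06, adjusted p = 0.360) or with other miRNAs alone (0.86, adjusted p = 0.183).

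The 2 clusters tested and not called were those on chromosome 3 (log2 change -0.28, SE 0.33, adjusted p = 0.418) and at Chic1 (0.64, SE 0.47, adjusted p = 0.208). With miR-181 reads alone, scaled to all chimeric reads, the chromosome 3 cluster was the only intergenic one tested. Its 24, 14 and 10 wild-type and 1, 0 and 0 knockout reads gave a log2 change of -4.84 (SE 0.65), in a fit where 98% of 49 clusters were lower and 2.04% higher. With a minimum count of 3, chosen after the data were seen, the Gm34596 cluster also entered, and 99.5% of 182 clusters were lower and 0.549% higher. Both clusters were chosen through wild-type miR-181 reads and passed the filter through the wild type alone, so these fits are descriptions and no p-value is given for them.

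With a minimum count of 3 for reads of all miRNAs, 15 intergenic clusters were tested between genotypes and 6 called, against 50.7% of all 487 (13.1% higher, 37.6% lower). Beside the 2 above, 3 were higher in the knockout. The cluster past Oip5os1 had 14, 10 and 0 reads without enrichment in wild type and 12, 18 and 8 in the knockout (log2 change 1.40, SE 0.47). The smaller chromosome 3 cluster had 8, 4 and 0 against 7, 5 and 10 (1.61, SE 0.60). With 0 reads in 1 wild-type library, these 2 clusters would not have passed the filter through the wild type. They passed through the knockout, where they are high, so both calls are descriptions and no p-value is given for them. One 33321 nt past the end of the long noncoding RNA 1700109G15Rik (chr11:84683651-84683655, minus strand) had 1, 0 and 2 against 5, 6 and 3 (2.78, SE 0.64). This cluster passed the filter through the knockout alone, so its call is a description and no p-value is given for it. The sixth, by Gm34596, had no knockout reads and passed the filter through the wild type alone, so its call is a description.

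Between enriched and unenriched libraries of the knockout, 115 clusters were tested and 83.5% called (55.7% higher, 27.8% lower). Only 2 of them were intergenic, and both were called. With a minimum count of 3, 7 intergenic clusters were called, where 81.2% of 245 were (36.7% higher, 44.5% lower). The chromosome 3 cluster had 16, 10 and 8 reads in the Ago2 IP and 40, 55 and 24 after enrichment, 188 ± 65.0 and 3217 ± 334 rpm. It was higher after enrichment (log2 change 1.21, SE 0.31), or 4.04 with library sizes alone. This cluster passed the filter through the enriched libraries alone, so its call is a description and no p-value is given here. Of its 119 reads after enrichment, 109 were miR-181, which the assay enriches. With miR-181 reads alone, 100% of 88 clusters were higher. Without unenriched knockout library 1, 2 or 3 it was not called (0.78, 0.50 and 0.29).

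The cluster before Rn18s-rs5 had 19, 16 and 6 reads after enrichment, 1089 ± 408 rpm. Relative to the TMM reference it was lower (-1.77, SE 0.32, edgeR adjusted p = 8.30e-06), and with library sizes alone it was higher (1.07, adjusted p = 0.00194). It has no settled direction here. TMM moved the median log2 change of all clusters from 4.43 to 1.70, and turned the split from 89 higher and 15 lower to 64 and 32. Without enriched knockout library 2 the cluster was not called (-0.42).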

How the data were processed

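The deposited counts are chimeric reads, 1 per line at a position 1 nt wide, named for the miRNA and split by strand. Per the submitters' processing notes, Bowtie2 2.4.5, SAMtools 1.11, STAR 2.7.10, UMI-tools 1.1.1 and bedtools 2.30.0 were used with builds mm10 and GRCm38.p6. The sources name no roles or filters. The clusters, gene lists and tests were chosen with earlier results of these data known. Reads were counted per cluster and library and scaled to 1000000 chimeric reads (rpm). Gene strand came from the RefSeq promoter table, otherwise from the gene's reads where 90% of 10 or more lay on 1 strand. Tests used edgeR 4.0.16 (TMM, minimum count 10, Benjamini-Hochberg over all clusters tested) in R 4.3.3, with DESeq2 1.42.0 as an alternative. Shares were compared by exact permutation with scipy 1.17.1 in Python 3.11.15. Wilson intervals are at 95%. On simulated data, changes of 2 on the log2 scale were recovered in 100% of cases for genotype over 115 clusters and in 94.7% for enrichment over 65. A count of 0 allows up to 3 reads, 10.2 to 439 rpm by library. Clusters named by rule were the 10 with most reads among those with 3 or more in each enriched wild-type library, those called, the 5 nearest to a gene, the 3 widest, and those next to T cell genes. Other named clusters were chosen after their values were seen.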

Additional observations from a re-analysis of the deposited data

Results flagged for a closer look

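Signal lay outside the gene table altogether. On scaffold KZ289081.1, for which the table holds no gene span, 3 clusters had 122 miR-181-5p reads in the 3 enriched wild-type libraries, and reads of any miRNA numbered 22 (wild type) and 18 (knockout) without enrichment, and 7 in the enriched knockout. They entered no comparison.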

How the results depend on the processing

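The number of clusters was 278 with a minimum of 10 reads, 389 with identical reads counted once, and 363 to 445 without 1 enriched wild-type library, against 619. It was 480 to 686 under the other joining distances and gene spans. Between genotypes in the Ago2 IP, DESeq2 called 4 of 32 intergenic clusters instead of 2 of 4, with 1 higher and 3 lower in the knockout. Over all clusters it called 232 of 1208, 13 higher and 219 lower. With no filter beyond 1 read, 3 of 263 were called, all lower, against 207 of 8682 over all clusters, 1 higher and 206 lower. A minimum count of 3 gave 6 calls of 15, 5 higher and 1 lower. There was 1 call with miR-181-5p reads alone, and 2 to 3 without 1 library. With other miRNAs alone edgeR called 0 (1 at an unadjusted p under 0.05), and with identical reads counted once edgeR called 0 (0 at an unadjusted p under 0.05), but only the chromosome 3 cluster was then tested and neither of the 2 called clusters was. Between enriched and Ago2 IP knockout libraries, 7 were called with a minimum count of 3, 1 with miR-181-5p reads alone (also at a minimum count of 3, added after the data were seen), 1 with other miRNAs alone, 1 with identical reads counted once, 1 to 3 without 1 library, and 4 with enriched knockout libraries 2 and 3 as 1 sample. The replicate block left 2 calls in each comparison; same-numbered libraries correlated at -0.18 to 0.14 between genotypes and -0.08 to 0.10 between assays, so the numbers were not taken as pairs. Signs turned for the chromosome 3 cluster between genotypes without 1 library (-0.56 to 0.0493; above 0 without unenriched knockout library 2), for Chic1 with other miRNAs alone (-0.33), and for Rn18s-rs5 between assays with library sizes alone (1.07) and other miRNAs alone (2.15); the cause was not tested. The cluster on chromosome 3 was not called between assays with identical reads counted once (0.61, adjusted p = 0.0693), nor Rn18s-rs5 with DESeq2 (-0.79) or no filter (-0.91). Over all clusters, calls between genotypes numbered 232 with DESeq2, 247 with a minimum count of 3, 207 with no filter, 49 with miR-181-5p alone and 11 with other miRNAs alone, against 96; between assays they numbered 188, 199, 177, 88 and 18, against 96. Both share differences kept their direction (0.0245 to 0.233 and 0.847 to 1.16 points without 1 library). Depth limits most clusters, since 86 of 619 had 3 or more wild-type Ago2 IP reads.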
